A study of Mus musculus with 96 samples.

Results

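The genes described are 10 genes of antigen presentation, measured in the brains of NOD/ShiLtJ and C57BL/6J mice: H2-K1, H2-D1, H2-T23, H2-Aa, B2m, Tap1, Tap2, Tapbp, Psmb8 and Cd74. A gene was taken as measured where a transcript cluster, the set of array probes that reports 1 transcript, carried its symbol and no other. Of the 10 genes, 9 had such a cluster among the 28310 clusters in the files. H2-D1 had none. In the annotation of the 1.1ST arrays, the main format below, the only cluster that lists it also lists LOC547349 and H2-K1. This shared class I cluster is therefore described beside the 9 genes and is not counted with them. The annotation of the 1.0ST arrays lists H2-D1 for the cluster of H2-K1 as well, and there only 7 of the 9 genes had a cluster with 1 symbol. The 9 genes are called the antigen presentation genes in what follows.

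The samples came from 16 adult male mice, 8 of NOD/ShiLtJ and 8 of C57BL/6J, both inbred strains bred in a university colony. In each strain 4 mice received 1 intraperitoneal injection of clozapine, an atypical antipsychotic, and 4 received vehicle, and the brain was taken 3 hours after that. One hemisphere was divided into forebrain and hindbrain and the opposite one was kept intact and is called whole brain, all without cerebellum, so every comparison of the strains has 8 mice per strain in each region. RNA of each of the 48 samples was hybridized to an Affymetrix 1.1ST peg array, which is used below unless the 1.0ST cartridge array of the same RNA is named. Neither strain carries an induced mutation or a transgene. The mice differ by strain in the whole genome and also in body weight, which lay between 28.1 and 32.8 g in NOD/ShiLtJ mice and between 22.9 and 26.3 g in C57BL/6J mice. By the labels, every NOD/ShiLtJ mouse also came from a larger litter than any C57BL/6J mouse. All values are log2 intensities, and the arrays had medians between 6.28 and 6.61, so a gene well below that range was dim. In bulk tissue, fewer cells of a type and less RNA per cell cannot be told apart.

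Class I molecules show peptides from inside a cell to CD8 T cells. Proteasomes, among them the immunoproteasome that holds the Psmb8 subunit, cut the peptides, the transporter made of TAP1 and TAP2 brings them into the endoplasmic reticulum, tapasin, the product of Tapbp, holds the transporter near empty class I molecules, and the class I heavy chain leaves only when it has bound beta-2-microglobulin, the product of B2m, and a peptide. Class II molecules, such as the one that holds the alpha chain made from H2-Aa, show peptides taken up from outside to CD4 T cells, and the invariant chain, the product of Cd74, keeps their groove closed until they reach the endosome. In healthy brain, class I is found mainly on vessels, microglia and some neurons, and class II mainly on macrophages of the meninges and perivascular spaces. The strains carry different MHC haplotypes, g7 in NOD/ShiLtJ and b in C57BL/6J, which share the D allele and differ at K and at the class II A locus. They also carry different alleles of B2m. The probes were designed on a reference that comes from C57BL/6J, so a base that differs in NOD/ShiLtJ under a probe can lower its signal without any difference in RNA. Such probes could not be identified here, and their part in the strain differences below was not tested.

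The stretches before the start sites of H2-K1, H2-T23 and B2m are shown because these 3 genes had the widest strain differences below, and that of H2-D1 is set beside H2-K1, with which it shares a cluster. The sequences are those of RefSeq on GRCm38.p6, a reference from C57BL/6J, read 5' to 3' on the strand of the gene. Capitals mark matches to the core of the interferon-stimulated response element (GAAANNGAA) or to the NF-kB consensus on either strand.
H2-K1, chr17:34000378-34000537, minus strand: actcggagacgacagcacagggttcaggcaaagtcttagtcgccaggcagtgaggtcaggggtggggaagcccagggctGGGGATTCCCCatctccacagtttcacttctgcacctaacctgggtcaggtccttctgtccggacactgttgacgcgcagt
H2-D1, chr17:35262844-35263003, plus strand: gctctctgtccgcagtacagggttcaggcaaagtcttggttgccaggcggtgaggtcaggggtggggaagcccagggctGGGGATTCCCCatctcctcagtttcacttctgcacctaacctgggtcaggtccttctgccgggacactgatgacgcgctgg
B2m, chr2:122147497-122147656, plus strand: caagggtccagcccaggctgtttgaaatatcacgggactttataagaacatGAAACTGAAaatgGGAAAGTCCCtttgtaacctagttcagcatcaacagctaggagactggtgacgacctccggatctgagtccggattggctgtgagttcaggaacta
H2-T23, chr17:36032732-36032891, minus strand: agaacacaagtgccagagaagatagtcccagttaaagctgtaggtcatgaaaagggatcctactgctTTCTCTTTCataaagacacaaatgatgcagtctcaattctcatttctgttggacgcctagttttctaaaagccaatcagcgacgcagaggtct

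The window of H2-D1 was set 60 bases further from the start site than that of H2-K1, so that their NF-kB matches line up. So placed, the windows had the same base at 143 of 160 positions (89.4%). Both hold the same NF-kB match, whose equal place in the windows was set by this shift. Promoters of 300 bases were searched for 8 of the 10 genes. Tap2 had none in the reference table, and Cd74 was left out of the search. The interferon element was found in 2 of these 8, B2m and H2-T23, against 8.57% of 27025 promoters of the same length. The NF-kB consensus was found in 4 of 8, H2-K1, H2-D1, H2-Aa and B2m, against 4.35% of all promoters. The CCAAT box, in either orientation, was found in 7 of 8 and in 37.9% of all promoters. TGACG, the core of the X2 box of MHC promoters and of the cyclic AMP response element, was found in 5 of 8 and in 21.0% of all promoters. A match describes letters and not a bound site, and the matched letters of the elements do not overlap in the sequences shown. Only exact matches to these letters were sought, so the lack of a match does not show that a promoter lacks the element.

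Between the strains, the genes that were lower in NOD/ShiLtJ brains in every region belong to class I presentation: H2-K1, H2-T23, B2m and Tapbp. These are 2 heavy chains, the light chain and the loading factor. In forebrain 4 of 9 were lower and 0 higher, in whole brain 4 were lower and 1 higher, and in hindbrain 4 were lower and 0 higher. Of all transcripts, 8.76%, 8.70% and 8.69% were called lower in forebrain, whole brain and hindbrain, and 4.45% were called lower in all 3 regions. The shares called higher were 8.98% in forebrain and 9.27% in whole brain, and in hindbrain 20.4% were called in either direction. A call means a false discovery rate (FDR) below 0.05 in a model over all transcripts. The median difference of the 9 genes was -0.14, -0.03 and -0.11 in forebrain, whole brain and hindbrain, and that of all transcripts was 0.01, 0.01 and 0.02 in these regions.

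**Figure D1:**
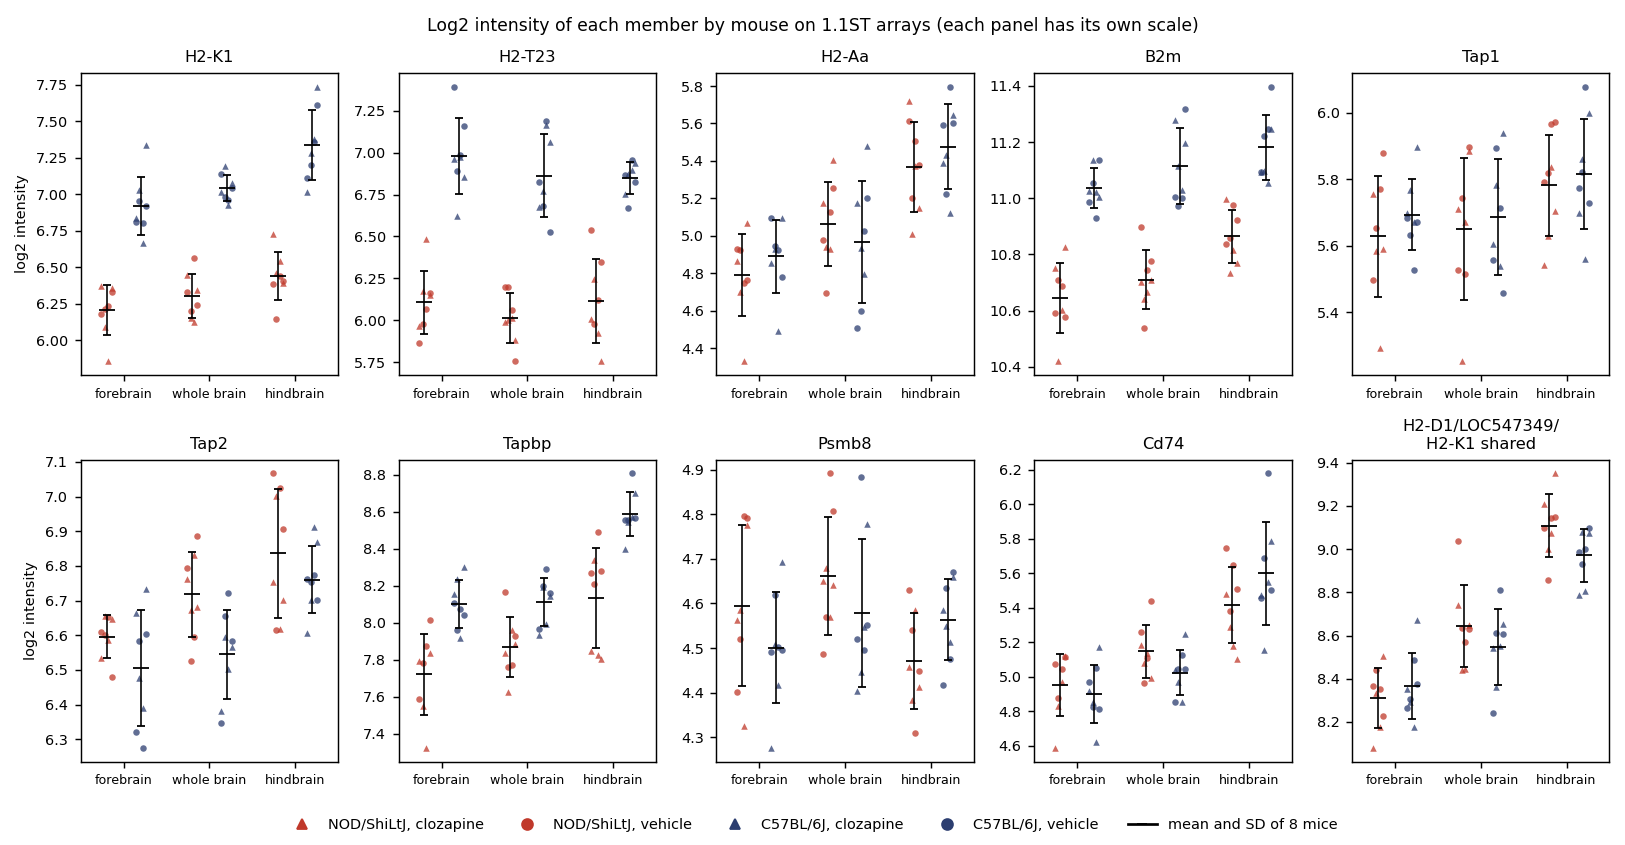
Log2 intensity (vertical axis, a scale of its own in each panel) of the 9 genes and of the shared class I cluster on the 1.1ST arrays in forebrain, whole brain and hindbrain. Each point is 1 mouse (triangles clozapine, circles vehicle), NOD/ShiLtJ is drawn left of C57BL/6J, and the bars are the mean and SD of 8 mice; for H2-K1, H2-T23 and B2m the strains overlap in no region, whereas for H2-Aa, Tap1, Psmb8 and Cd74 they overlap in all 3.

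H2-K1 encodes the heavy chain of a classical class I molecule. In forebrain its lowest, median and highest values were 5.85, 6.22 and 6.37 in NOD/ShiLtJ mice, against 6.67, 6.88 and 7.34 in C57BL/6J mice. In whole brain they were 6.13, 6.29 and 6.56 in NOD/ShiLtJ mice, against 6.93, 7.03 and 7.19 in C57BL/6J mice. In hindbrain they were 6.14, 6.42 and 6.73 in NOD/ShiLtJ mice, against 7.02, 7.32 and 7.73 in C57BL/6J mice. Every NOD/ShiLtJ value thus lay below every C57BL/6J value of the region. The strain difference, NOD/ShiLtJ minus C57BL/6J on the log2 scale, was -0.73 in forebrain (SE 0.08, FDR 2.83e-09), a signal 1.66-fold lower in NOD/ShiLtJ. It was -0.76 in whole brain (SE 0.08, FDR 6.13e-10) and -0.90 in hindbrain (SE 0.09, FDR 6.20e-11).

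H2-T23 encodes Qa-1, a nonclassical class I heavy chain that binds the receptor NKG2A with CD94 on natural killer cells. Its lowest, median and highest values in forebrain were 5.87, 6.11 and 6.48 in NOD/ShiLtJ mice, against 6.62, 6.97 and 7.39 in C57BL/6J mice. In whole brain they were 5.75, 6.01 and 6.20 in NOD/ShiLtJ mice, against 6.53, 6.80 and 7.19 in C57BL/6J mice. In hindbrain they were 5.76, 6.06 and 6.54 in NOD/ShiLtJ mice, against 6.67, 6.87 and 6.96 in C57BL/6J mice. The strains did not overlap in any region. The difference was -0.85 in forebrain (SE 0.08, FDR 2.68e-11), -0.83 in whole brain (SE 0.08, FDR 2.66e-11) and -0.58 in hindbrain (SE 0.09, FDR 1.09e-06).

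B2m, the light chain that all class I heavy chains share, was the brightest of the 9 genes on these arrays. Its values in forebrain ran from 10.42 through a median of 10.64 to 10.82 in NOD/ShiLtJ mice, and from 10.93 through 11.02 to 11.14 in C57BL/6J mice. In whole brain they ran from 10.54 through 10.70 to 10.90 in NOD/ShiLtJ mice, and from 10.97 through 11.07 to 11.32 in C57BL/6J mice. In hindbrain they ran from 10.73 through 10.85 to 11.00 in NOD/ShiLtJ mice, and from 11.05 through 11.16 to 11.40 in C57BL/6J mice. The gap between the strains was small against that of H2-K1, yet no value crossed it. The difference was -0.44 in forebrain (SE 0.04, FDR 6.21e-12), -0.43 in whole brain (SE 0.04, FDR 7.40e-12) and -0.33 in hindbrain (SE 0.04, FDR 4.17e-08). Over all transcripts, a complete separation with NOD/ShiLtJ below was found for 2.11%, 1.91% and 2.18% in forebrain, whole brain and hindbrain, and for 1.14% in every region, the class to which H2-K1, H2-T23 and B2m belonged.

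Tapbp encodes tapasin. In forebrain its lowest, median and highest values were 7.33, 7.79 and 8.02 in NOD/ShiLtJ mice, against 7.92, 8.09 and 8.30 in C57BL/6J mice. In whole brain they were 7.62, 7.86 and 8.17 in NOD/ShiLtJ mice, against 7.93, 8.15 and 8.29 in C57BL/6J mice. In hindbrain they were 7.80, 8.24 and 8.49 in NOD/ShiLtJ mice, against 8.40, 8.56 and 8.81 in C57BL/6J mice. The ranges overlapped in each region, where 7, 6 and 7 of the 8 NOD/ShiLtJ values of forebrain, whole brain and hindbrain lay below every C57BL/6J value. The difference was -0.34 in forebrain (SE 0.06, FDR 1.22e-05), -0.23 in whole brain (SE 0.06, FDR 0.00222) and -0.32 in hindbrain (SE 0.06, FDR 7.80e-05). In whole brain the call was lost with the clozapine-treated mice alone (-0.20, FDR 0.0833) and on the 1.0ST arrays without surrogate variables (-0.14, FDR 0.146).

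No lower level was called for the transporter subunits. Tap1 values in forebrain ran from 5.29 to 5.88 in NOD/ShiLtJ mice and from 5.53 to 5.90 in C57BL/6J mice, with a difference of -0.03 (SE 0.08, FDR 0.554), and the differences in whole brain and hindbrain were -0.03 and -0.02. On the 1.0ST arrays its differences were -0.07, -0.09 and -0.06 in forebrain, whole brain and hindbrain, none called, with a 95% interval in whole brain of -0.17 to -0.01 (FDR 0.0791). Tap2 values in whole brain had a lowest, median and highest of 6.53, 6.72 and 6.89 in NOD/ShiLtJ mice, against 6.35, 6.58 and 6.72 in C57BL/6J mice. Tap2 was higher in NOD/ShiLtJ whole brain by 0.19 (SE 0.06, FDR 0.0206), and the call was lost on the 1.0ST arrays, where the difference was 0.07 (SE 0.04, FDR 0.142), and without surrogate variables (0.17, FDR 0.0775). It was also lost without the whole brain array of NOD/ShiLtJ mouse DD656, whose values lay nearer to hindbrain than those of the other whole brain arrays (0.17, FDR 0.0589), and without any 1 of C57BL/6J mice BB685, BB686 and BB702 and NOD/ShiLtJ mice DD656, DD676 and DD677 (0.16 to 0.17, FDR 0.0508 to 0.0653). The differences of Tap2 in forebrain and hindbrain were 0.12 (FDR 0.153) and 0.15 (FDR 0.0854). For Tap1, the 95% interval in forebrain was -0.18 to 0.12, so a difference in signal of the size seen for H2-K1 lies outside it. With a mean of 5.71, Tap1 lay below the array medians, so this interval bounds the signal and not the RNA.

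Of the 10 genes, 8 lie on chromosome 17, B2m on chromosome 2 and Cd74 on chromosome 18. Psmb8 and the class II genes were dim, with means over the 48 arrays of 4.56 for Psmb8, 5.09 for H2-Aa and 5.17 for Cd74. Psmb8 values in forebrain ran from 4.32 to 4.80 in NOD/ShiLtJ mice and from 4.28 to 4.69 in C57BL/6J mice, and its differences were 0.11, 0.08 and -0.09 in forebrain, whole brain and hindbrain (FDR 0.217, 0.317 and 0.293). H2-Aa ranged from 4.33 to 5.07 in NOD/ShiLtJ forebrain and from 4.49 to 5.10 in C57BL/6J forebrain. Its differences were -0.14, 0.07 and -0.10 in forebrain, whole brain and hindbrain (FDR 0.300, 0.488 and 0.418). Cd74 ranged from 4.59 to 5.12 in NOD/ShiLtJ forebrain and from 4.62 to 5.17 in C57BL/6J forebrain, and its differences were 0.04, 0.13 and -0.11 in the same regions (FDR 0.540, 0.231 and 0.323). No strain difference was called for these 3 genes in any region on the 1.1ST arrays with all mice, and Psmb8 was called higher in forebrain without C57BL/6J mouse BB703 (0.17, FDR 0.0469). At such levels a difference in RNA can leave the intensity almost unmoved, so the lack of a call does not show equal levels.

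The shared class I cluster, the only one that lists H2-D1 in the 1.1ST annotation, was bright, with a mean of 8.66. In forebrain its lowest, median and highest values were 8.08, 8.34 and 8.51 in NOD/ShiLtJ mice, against 8.18, 8.33 and 8.67 in C57BL/6J mice, and the ranges overlapped in every region. The differences were -0.08, 0.09 and 0.11 in forebrain, whole brain and hindbrain (FDR 0.287, 0.215 and 0.159). None was called with all mice, whereas the cluster taken as that of H2-K1 was lower in each region. The 1.0ST annotation lists LOC547349 and H2-D1 for that cluster too, so it may not be specific to H2-K1. In hindbrain the shared cluster was called higher in NOD/ShiLtJ without NOD/ShiLtJ mouse DD657 (0.17, FDR 0.0145) or DD675 (0.18, FDR 0.0160) or C57BL/6J mouse BB708 (0.15, FDR 0.0331). It was also called with clusters of a mean log2 above 5 alone (0.12, FDR 0.0306) and with surrogate variables built from residuals (0.14, FDR 0.0192). How much of the shared signal comes from H2-D1 and how much from H2-K1 cannot be told apart.

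**Figure D2:**
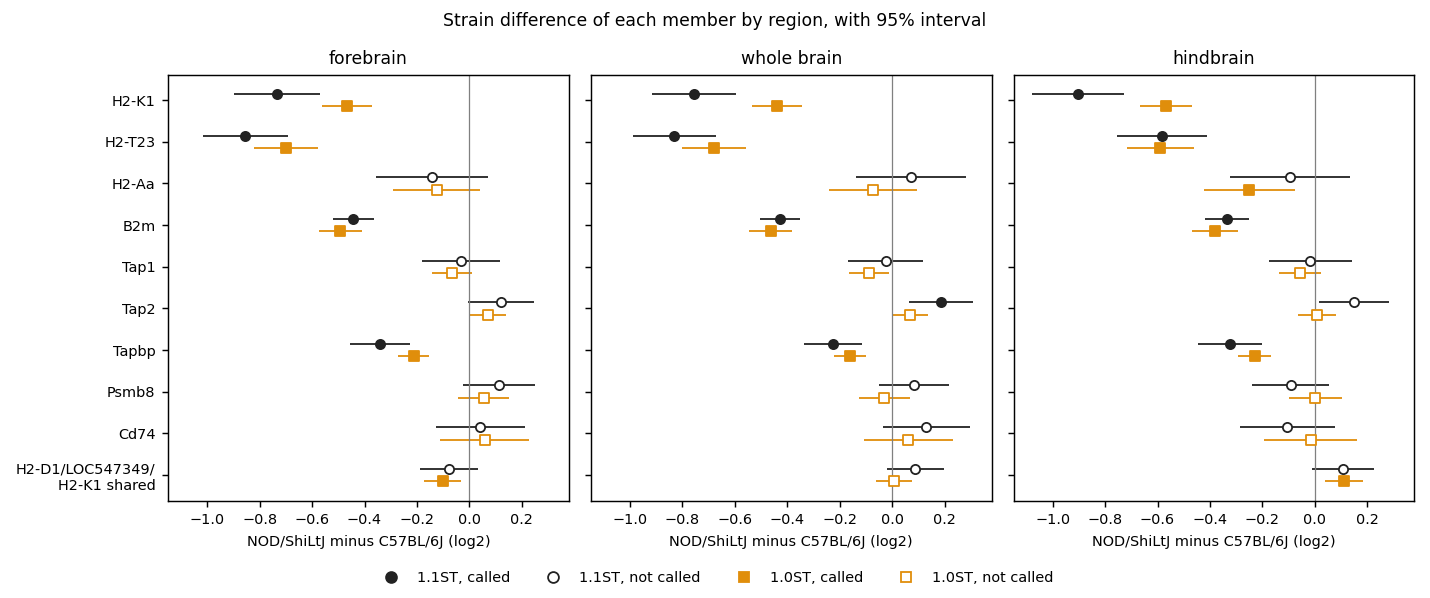
Strain difference, NOD/ShiLtJ minus C57BL/6J in log2 units (horizontal axis), for each gene and region, on the 1.1ST and the 1.0ST arrays, with 95% intervals of the fit and filled points where called. H2-K1, H2-T23, B2m and Tapbp lie below 0 on both formats in all 3 regions, from -0.90 to -0.23 on the 1.1ST arrays.

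When each mouse was reduced to the mean of its 3 regions, without any model, Tapbp separated the strains as well, and on these means 3.95% of all transcripts had every NOD/ShiLtJ mouse below every C57BL/6J mouse. H2-K1 averaged 6.31 ± 0.12 in NOD/ShiLtJ mice and 7.10 ± 0.14 in C57BL/6J mice (SD, n = 8 each). H2-T23 averaged 6.08 ± 0.09 in NOD/ShiLtJ mice and 6.90 ± 0.13 in C57BL/6J mice (SD, n = 8 each). The means were 10.74 ± 0.07 and 11.11 ± 0.08 for B2m in NOD/ShiLtJ and C57BL/6J mice, and 7.91 ± 0.13 and 8.27 ± 0.09 for Tapbp in the same order. For each of these 4 genes the two-sided exact permutation test gave p = 0.000155, the smallest that 12870 splits of 8 against 8 mice can give. Tap2 averaged 6.72 ± 0.08 in NOD/ShiLtJ mice and 6.60 ± 0.07 in C57BL/6J mice (exact permutation p = 0.0104). For Tap1, Psmb8, H2-Aa, Cd74 and the shared cluster the exact p lay between 0.281 and 0.970, and these p-values are for 10 clusters and are not adjusted.

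The 1.0ST arrays measured the same RNA again with the same clusters, so they bear on the error of hybridization and not on the mice or on the alleles under the probes. On them H2-K1 was lower in NOD/ShiLtJ forebrain (log2 difference -0.47, SE 0.05, FDR 2.62e-10), and its differences were -0.44 in whole brain and -0.57 in hindbrain. H2-T23 differed by -0.70, -0.68 and -0.59 in forebrain, whole brain and hindbrain, B2m by -0.49, -0.46 and -0.38, and Tapbp by -0.21, -0.16 and -0.23, and all were called. On this format 8.61%, 9.09% and 11.1% of all transcripts were called lower in NOD/ShiLtJ forebrain, whole brain and hindbrain. The strains did not overlap for H2-T23 and B2m in any region and for H2-K1 in whole brain and hindbrain, whereas in forebrain the highest H2-K1 value of NOD/ShiLtJ mice, 8.62, lay above the lowest of C57BL/6J mice, 8.57. Over all transcripts of this format, NOD/ShiLtJ lay wholly below for 1.74%, 1.38% and 1.80% in forebrain, whole brain and hindbrain. H2-Aa was lower in NOD/ShiLtJ hindbrain on this format alone (-0.25, SE 0.09, FDR 0.0231), against -0.10 on the 1.1ST arrays. The 1.0ST table lists further symbols for the clusters of H2-K1 (LOC547349 and H2-D1) and of H2-T23 (H2-T-ps), so these signals may hold RNA of near-identical copies.

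Across the 48 samples, values of the formats correlated with r = 0.93 for H2-K1, 0.94 for the shared cluster, 0.93 for Tapbp, 0.91 for Cd74, 0.85 for B2m and 0.82 for H2-T23. These r describe samples that share strain, region and mouse. After the mean of each strain and region was taken off, r was 0.81 for Cd74, 0.78 for Tapbp, 0.60 for H2-K1, 0.15 for B2m and 0.05 for H2-T23. For H2-T23 and B2m the agreement of the formats thus lay in the gap between the strains and hardly in differences among mice of a group. Psmb8 had r = 0.12 over the 48 samples, the lowest of the 10 clusters.

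The strain difference was also compared between regions. For 0 of 9 genes was the difference in hindbrain called unlike that in forebrain, against 2.29% of all transcripts, and the same held for whole brain, where 0% of all transcripts were called. At an unadjusted p below 0.05, 2 of the 9 stood out in hindbrain. The difference of H2-T23 was smaller in size in hindbrain than in forebrain by 0.27 on the log2 scale (SE 0.12, 95% interval 0.05 to 0.50, FDR 0.223), and was 0.11 smaller on the 1.0ST arrays (FDR 0.514). For Psmb8 the difference in hindbrain minus that in forebrain was -0.20 (SE 0.10, FDR 0.294). For the shared cluster it was 0.18 (SE 0.08, FDR 0.237) on the 1.1ST arrays, and it was called there without NOD/ShiLtJ mouse DD657 (0.26, FDR 0.0315) or DD675 (0.27, FDR 0.0322) and on the 1.0ST arrays, where 3.04% of all transcripts were.

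Hindbrain was next compared with forebrain, with the strains averaged, and Cd74 and Tapbp showed the widest gaps. In the fit of the 1.1ST arrays, 5 of 9 genes were higher in hindbrain than in forebrain and 0 lower, and 27.5% of all transcripts were called higher and 19.7% lower. Cd74 was higher by 0.56 (SE 0.09, FDR 3.48e-07), Tapbp by 0.37 (SE 0.06, FDR 4.36e-07), H2-Aa by 0.34 (SE 0.11, FDR 0.00426), Tap2 by 0.27 (SE 0.06, FDR 0.000297) and H2-K1 by 0.17 (SE 0.08, FDR 0.0425). The call for H2-K1 was lost with the arrays of a mouse taken as independent (0.17, FDR 0.0503), and without any 1 of C57BL/6J mice BB687, BB702 and BB708 and NOD/ShiLtJ mice DD658, DD659 and DD676 (0.14 to 0.22, FDR 0.0646 to 0.104). Without the whole brain array of NOD/ShiLtJ mouse DD656 the value for H2-K1 was 0.06 (FDR 0.295). The call for Tap2 was lost without NOD/ShiLtJ mouse DD676 (0.14, FDR 0.156). Tap1 was called in addition with the mouse as a fixed block (0.17, FDR 0.0160), and Tap1 (0.14, FDR 0.0107) and B2m (0.18, FDR 2.23e-05) without surrogate variables. Leaving out 1 mouse also gained a call for B2m (0.08 to 0.11 without BB685, BB686, BB707, DD656 or DD678) and for Tap1 (0.16 to 0.19 without BB702, BB703 or DD678). The shared cluster was higher by 0.45 (SE 0.06, FDR 3.95e-09).

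The fit on the 1.0ST arrays called Tapbp alone (0.18, SE 0.05, FDR 0.0103), and its H2-K1 value was -0.04 (FDR 0.515), with the differences of Cd74 and H2-Aa at 0.21 and 0.34 (FDR 0.252 and 0.0775). On that format 19.3% of all transcripts were called in either direction. Of its 5 surrogate variables, which stand for unlabelled differences between arrays, a pair had an R2 of 0.668 and 0.410 with region, whereas on the 1.1ST arrays R2 was at most 0.202. What these variables take from the region differences was examined with paired values that need no model.

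**Figure D3:**
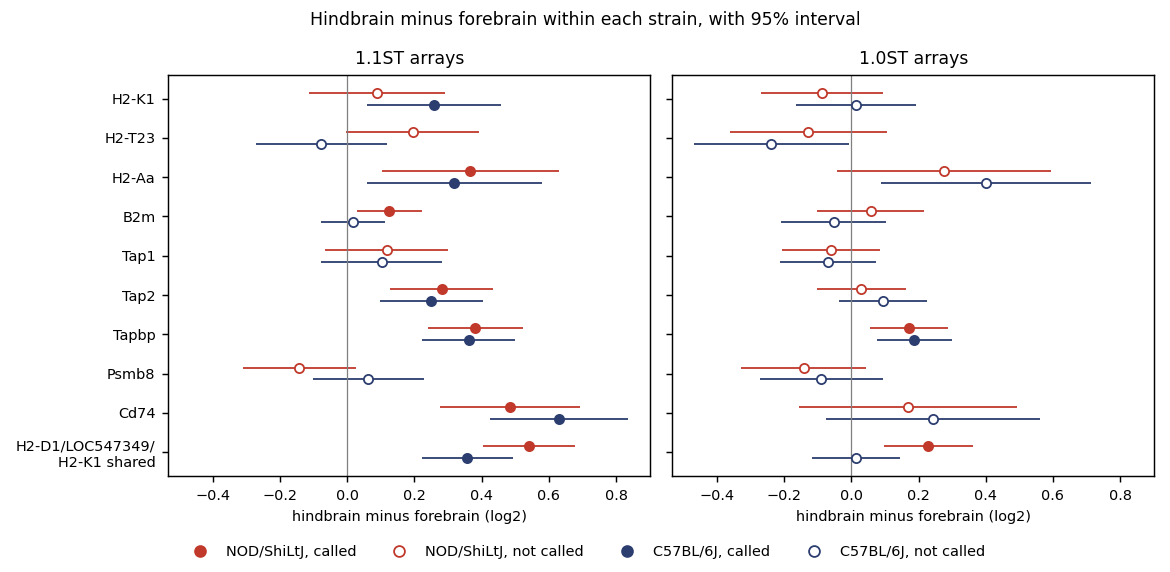
Fitted difference of hindbrain minus forebrain in log2 units (horizontal axis) within NOD/ShiLtJ and within C57BL/6J mice for each gene, on the 1.1ST arrays (left) and the 1.0ST arrays (right), with surrogate variables in the model. Points are estimates over 8 mice per strain, filled where called, and lines are 95% intervals; Cd74 lies at 0.48 in NOD/ShiLtJ and 0.63 in C57BL/6J on the 1.1ST arrays, and on the 1.0ST arrays Tapbp is the only one of the 9 genes with filled points.

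As measured, without surrogate variables, the hindbrain of a mouse lay above its own forebrain for most of these genes on both formats. The shared class I cluster was higher in hindbrain by 0.70 ± 0.20 on the 1.1ST arrays and by 0.63 ± 0.17 on the 1.0ST arrays (SD of 16 mice), in 16 of 16 mice on each. H2-Aa was higher by 0.58 ± 0.26 in 16 of 16 mice on the 1.1ST arrays and by 0.43 ± 0.27 in 15 of 16 on the 1.0ST arrays. Cd74 was higher by 0.58 ± 0.29 and 0.46 ± 0.27 on these formats, in 15 of 16 mice on each. Both class II genes were thus higher in the hindbrain of nearly every mouse of both strains. Tapbp had a mean gap of 0.45 in 15 of 16 mice on the 1.1ST arrays and of 0.37 in 16 of 16 on the 1.0ST arrays, and H2-K1 of 0.32 and 0.30 in 15 of 16 mice on each format. For Tap2 the gap was 0.25 and 0.14, for B2m 0.18 and 0.14, and for Tap1 0.14 and 0.05. H2-T23 was higher in the hindbrain of 7 of 16 mice and Psmb8 of 8 of 16 on either format. These counts of mice are descriptions, with no share of all transcripts to set beside them. Without surrogate variables the fit of either format called 7 of the 9 genes higher in hindbrain, all but H2-T23 and Psmb8. The share of all transcripts called higher by these fits was not computed, so whether 7 of 9 is many for them cannot be told.

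Within the strains, Cd74 was higher in hindbrain by 0.48 in NOD/ShiLtJ (SE 0.11, FDR 0.000129) and by 0.63 in C57BL/6J (SE 0.11, FDR 2.16e-06), and no difference between the strains in this gap was called. Of all transcripts 24.4% were higher in hindbrain in NOD/ShiLtJ and 22% in C57BL/6J. B2m was higher in NOD/ShiLtJ hindbrain (0.13, SE 0.05, FDR 0.0216), with a value of 0.02 in C57BL/6J (FDR 0.399). H2-K1 was higher in C57BL/6J hindbrain (0.26, SE 0.10, FDR 0.0215), with 0.09 in NOD/ShiLtJ (FDR 0.276). For neither gene was a difference between the strains in this gap called by the test of the interaction above. On the 1.0ST arrays neither was called in either strain (B2m 0.06 and -0.05, H2-K1 -0.09 and 0.01 in NOD/ShiLtJ and C57BL/6J). As measured on the 1.1ST arrays, hindbrain lay above forebrain in 7 NOD/ShiLtJ and 8 C57BL/6J mice for H2-K1, and in 7 of each strain for B2m. Between whole brain and forebrain 0 of the 9 genes were called, against 14.4% of all transcripts, which does not show equal levels. The largest difference was that of Cd74, at 0.16 (SE 0.07, FDR 0.0679). Cd74 was called without surrogate variables (0.16, FDR 0.0480) and with surrogate variables built from residuals (0.16, FDR 0.0256). It was also called without C57BL/6J mouse BB686 (0.20, FDR 0.0260) or NOD/ShiLtJ mouse DD678 (0.22, FDR 0.0114). The shared cluster was higher in whole brain than in forebrain by 0.15 (SE 0.04, FDR 0.0111), and by 0.03 on the 1.0ST arrays (FDR 0.681).

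No difference between clozapine and vehicle was called for any of the 9 genes 3 hours after injection, against 2.92% of all transcripts called. Of the 9, 0 had an unadjusted p below 0.05 on either format. Tapbp averaged 7.80 ± 0.07 in clozapine-treated NOD/ShiLtJ mice and 8.01 ± 0.07 in vehicle-treated NOD/ShiLtJ mice (SD of the means of 3 regions, n = 4 each), without overlap, and 8.26 ± 0.11 and 8.27 ± 0.08 in clozapine-treated and vehicle-treated C57BL/6J mice. Of all transcripts, 5.12% had the 4 clozapine-treated NOD/ShiLtJ mice below the 4 vehicle-treated ones in this way. On the 1.0ST arrays these groups overlapped for Tapbp, with a highest value of 9.23 in clozapine-treated and a lowest of 9.22 in vehicle-treated NOD/ShiLtJ mice. In the fit the difference over both strains was -0.04 for Tapbp (SE 0.04, FDR 0.566). For H2-K1 it was 0.02 (95% interval -0.08 to 0.12), for B2m -0.04 (-0.09 to 0.01), and for Cd74, the widest of the 9, -0.08 (-0.18 to 0.03). A difference between the strains in the effect of clozapine was called for 0 of the 9 (FDR 0.946 to 0.978) and for 0.0212% of all transcripts, which does not show that it was alike. Since the fit found little correlation between arrays of 1 mouse, its error for clozapine may be too small.

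Among mice of a strain, no relation between the levels of these genes, each the mean of 3 regions, passed the exact permutation test after adjustment. Of 10 relations, 5 pairs of genes in each strain with n = 8 mice, Pearson's r ran from 0.39 to 0.79 and Spearman's rho from 0.17 to 0.76. The lowest p after Benjamini-Hochberg adjustment of the exact permutation test was 0.108 for r and 0.115 for rho. The highest r was that of Tap1 with Tapbp in C57BL/6J mice, 0.79 (exact permutation p = 0.0216, adjusted 0.108), with a rho of 0.64 (exact permutation p = 0.0962). Without the 2 mice farthest from the median of Tap1, r was 0.61.

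Other genes of the pathway were read from lists. Of 21 further class I heavy chains and class I-like genes measured, 5 were lower and 1 higher in NOD/ShiLtJ forebrain, with a median difference of 0.02, while 4 were lower and 3 higher in whole brain and 4 lower and 1 higher in hindbrain. H2-T9 was lower by the widest margin (-0.70, SE 0.05, FDR 3.53e-14), then H2-T10 (-0.46, SE 0.06, FDR 2.38e-07) and H2-K2 (-0.39, SE 0.08, FDR 0.000294), and these 3 were lower in whole brain and hindbrain as well. Mr1, which presents vitamin metabolites to MAIT cells, was higher (0.22, SE 0.06, FDR 0.00777). Class I genes of the H2-T and H2-Q groups are near-identical copies of each other, and the array cannot fully split them.

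Of 15 genes of peptide processing and loading, 3 were lower and 0 higher in NOD/ShiLtJ forebrain, 3 lower and 2 higher in whole brain, and 4 lower and 3 higher in hindbrain, and in forebrain on the 1.0ST arrays 4 were lower and 3 higher. Those lower in forebrain on the 1.1ST arrays were Tapbpl, a relative of tapasin that edits the peptides of class I molecules (-0.31, SE 0.06, FDR 5.53e-05), Psme1, a subunit of the proteasome activator PA28 (-0.23, SE 0.06, FDR 0.00291), and Erap1, an aminopeptidase that trims peptides in the endoplasmic reticulum (-0.18, SE 0.05, FDR 0.00347). Psmb9, the immunoproteasome subunit encoded beside Tap1, had a difference of -0.06 (FDR 0.436). The median of the 15 was 0.03.

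Of 12 further class II and endosomal genes, 2 were lower and 2 higher in NOD/ShiLtJ forebrain. The lower ones were Marchf1, a ubiquitin ligase that removes class II from the cell surface (-0.25, SE 0.06, FDR 0.000958), and H2-Oa, a chain of the inhibitor of class II loading (-0.21, SE 0.06, FDR 0.00654). The higher ones were Ctsl, a lysosomal protease (0.25, SE 0.04, FDR 1.92e-06), and H2-DMa, a chain of the class II loading catalyst (0.21, SE 0.07, FDR 0.0310). H2-Ab1, the partner chain of H2-Aa, had a difference of -0.02 in forebrain (SE 0.11, FDR 0.605). In whole brain 2 of the 12 were lower and 3 higher, and in hindbrain 3 were lower and 2 higher. H2-Oa was dim, with a mean of 4.52, and differed by 0.08 in whole brain (FDR 0.276) and -0.23 in hindbrain (FDR 0.00347). H2-DMa was not called in whole brain (0.15, FDR 0.127) or hindbrain (0.17, FDR 0.0974). Between the regions, 6 of these 12 were higher in hindbrain and 2 lower, among them H2-Ab1 (0.28, SE 0.11, FDR 0.0152) and H2-Eb1 (0.30, SE 0.08, FDR 0.000600), which are class II beta chains. On the 1.0ST arrays 1 of the 12 was called higher and 0 lower, and H2-Ab1 and H2-Eb1 had differences of 0.19 (FDR 0.206) and 0.12 (FDR 0.242).

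Of 18 regulators of MHC genes, 2 were lower and 2 higher in NOD/ShiLtJ forebrain, shares near the 8.76% and 8.98% of all transcripts called lower and higher. Creb1 (-0.13, SE 0.04, FDR 0.0121) and Nfyc (-0.11, SE 0.04, FDR 0.0417), which bind class I and class II promoters, were lower, and Ifngr2, a chain of the interferon-gamma receptor (0.19, SE 0.04, FDR 8.23e-05), and Rfxap, a part of the RFX complex (0.15, SE 0.04, FDR 0.00605), were higher. The master regulators had no called difference: Nlrc5, of class I, had -0.05 (SE 0.05, FDR 0.357) and Ciita, of class II, 0.09 (SE 0.06, FDR 0.223).

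**Figure D4:**
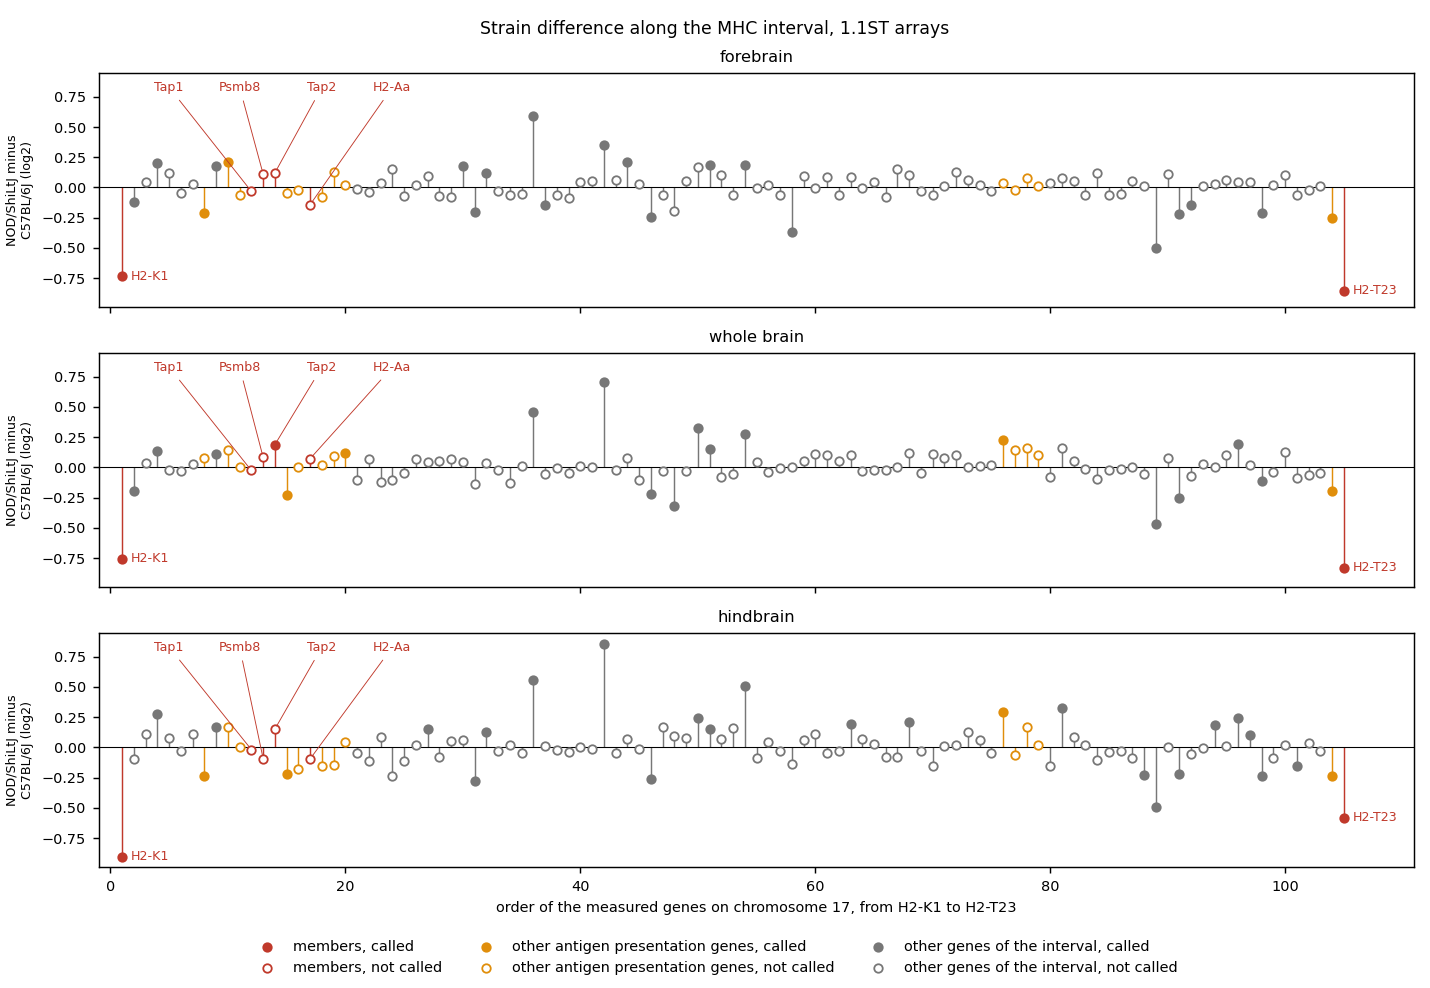
Strain difference, NOD/ShiLtJ minus C57BL/6J in log2 units of the 1.1ST arrays (vertical axis), in forebrain, whole brain and hindbrain for the 105 genes between H2-K1 and H2-T23, in their order on chromosome 17 (horizontal axis). Filled points are called; in forebrain H2-T23 (-0.85) and H2-K1 (-0.73), at the ends of the interval, have the lowest values, and the other called genes lie on both sides of 0.

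The MHC holds many genes that do not present antigen, and those between H2-K1 and H2-T23 were examined next. Of the 105 genes of this interval, 13 were lower and 10 higher in NOD/ShiLtJ forebrain, a share of 21.9%, against 17.7% of all transcripts. The shares called were 20.0% in whole brain and 26.7% in hindbrain, against 18% and 20.4% of all transcripts. The median size of the difference in the interval was 0.065, 0.072 and 0.089 in forebrain, whole brain and hindbrain. Over all transcripts it was 0.063, 0.061 and 0.070 in these regions. In no list of antigen presentation, the lowest were Gtf2h4, a subunit of the transcription factor TFIIH (-0.50, SE 0.05, FDR 1.81e-11), Ly6g6e (-0.37, SE 0.10, FDR 0.00440) and Neu1, a lysosomal sialidase (-0.25, SE 0.05, FDR 0.000172). Ly6g6e was not called in whole brain (0.005, FDR 0.644), in hindbrain (-0.14, FDR 0.269) or in forebrain on the 1.0ST arrays (-0.10, FDR 0.0869). The highest were the complement genes C4a (0.59, SE 0.09, FDR 9.73e-07) and C2 (0.35, SE 0.08, FDR 0.000857) and the histone methyltransferase Ehmt2 (0.21, SE 0.04, FDR 0.000172). In forebrain on the 1.0ST arrays C2 differed by 0.11 (FDR 0.0366). Differences of both signs thus stood in the haplotype, and Tap1, Psmb8, Tap2 and H2-Aa, which lie near each other in it, had none called in forebrain.

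Markers of cell types that carry MHC molecules were counted beside these results. Of 11 endothelial markers, 6 were lower and 0 higher in NOD/ShiLtJ forebrain, among them Slco1a4 (-0.75), Abcb1a (-0.41) and Tek (-0.35), and 5 were lower in whole brain and in hindbrain, as were 5 in each region on the 1.0ST arrays. The mean of the 11 in forebrain ran from 7.84 to 8.29 in NOD/ShiLtJ mice and from 8.29 to 8.53 in C57BL/6J mice. Of 16 microglial markers, 4 were lower in forebrain, led by Fcrls (-1.27), and 3 higher, with a median difference of 0.08. In whole brain 3 were lower and 3 higher, and in hindbrain 3 were lower and 5 higher. On the 1.0ST arrays 4 were lower and 7 higher in forebrain. The mean of the 16 ran from 7.55 to 7.85 in NOD/ShiLtJ forebrain and from 7.68 to 7.95 in C57BL/6J forebrain. Endothelial markers thus moved the way of H2-K1, H2-T23, B2m and Tapbp, and their part in those differences was not tested. In forebrain, 3 of 8 astrocyte markers were higher and 2 lower, and 2 of 8 dendritic cell markers were higher and 1 lower. Of 8 markers of border and meningeal macrophages 1 was higher and 0 lower there, and of 11 lymphocyte markers 0 were higher and 1 lower. No choroid plexus marker of 9 and no erythrocyte marker of 2 was called in forebrain. The lymphocyte markers were dim throughout, with a mean between 4.62 and 4.74 in NOD/ShiLtJ forebrain and between 4.64 and 4.80 in C57BL/6J forebrain.

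Between the regions, on the 1.1ST arrays, 10 of 11 endothelial markers were higher in hindbrain and 0 lower (median difference 0.26), 6 of 8 astrocyte markers were higher and 2 lower (median 0.40), and 4 of 8 markers of border and meningeal macrophages were higher and 0 lower (median 0.16). Of the microglial markers 2 were higher and 11 lower, and of the choroid plexus markers 1 was higher and 8 lower. The fit of the 1.0ST arrays called fewer of them: 3 endothelial markers higher and 0 lower, 4 astrocyte markers higher and 2 lower, 0 macrophage markers in either direction (median 0.015), and 0 microglial markers higher and 4 lower. The part of these cells in the class II values of hindbrain was not tested.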

How the data were processed

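RNA of 48 brain samples from 16 mice was measured on Affymetrix 1.1ST and 1.0ST arrays. The authors normalized each format by the robust multiarray average in Affymetrix Expression Console 1.1, and the deposited table holds log2 intensities for 28310 transcript clusters, of which 21207 carry 1 gene symbol, 1867 several and 5236 none. No cluster was filtered. The number of arrays limits the precision. Groups come from the labels, the replicates are separate mice, and the array batch and the hemisphere were not used here.

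All clusters were fitted with limma 3.58.1 (R 4.3.3, statmod 1.5.0): 6 means of strain and region, treatment, 5 surrogate variables, each from the 1000 transcripts that correlated best with a principal component, and the mouse as a random block (consensus correlation 0.0310, and 0.0471 on the 1.0ST arrays). The false discovery rate (FDR) was computed by the authors' formula, and values below 0.05 are called. Pairing rests on the regions coming from the same animal, whose residuals had mean correlations between -0.03 and 0.01. The fit was tested on simulated data. Single values per mouse were compared by exact permutation tests.

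The genes and lists were chosen with earlier results of these data known. Named beside the 10 genes are, per list, up to 3 called genes in each direction with the largest strain difference in forebrain, and likewise from the interval between H2-K1 and H2-T23 genes in no list; others were named after their values were seen. Promoters come from RefSeq (GRCm38.p6). Alternatives were the other format, other or no surrogate variables, no block or a fixed one, a mixed model (lme4 1.1.37), Benjamini-Hochberg adjustment, a minimum mean log2 of 5, median centring, quantile normalization, 1 treatment or region alone, 1 mean per mouse, the hour of kill, and each mouse left out.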

Additional observations from a re-analysis of the deposited data

Results flagged for a closer look

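For the class I cluster shared by H2-D1, LOC547349 and H2-K1, the strain difference in hindbrain minus that in forebrain was 0.21 on the log2 scale on the 1.0ST arrays (SE 0.05, 95% interval 0.12 to 0.31, FDR 0.00616), so the test of the difference between regions passed. The strain difference on these arrays was 0.11 in hindbrain (FDR 0.0148) and -0.10 in forebrain (FDR 0.0239). As measured, 5 of 8 NOD/ShiLtJ hindbrain values lay above every C57BL/6J one, against 0 of 8 in forebrain. The same contrast was 0.18 on the 1.1ST arrays (FDR 0.237) and 0.24 on the 1.0ST arrays without surrogate variables (FDR 0.207). On the 1.1ST arrays, in 0 of 60 groups of 8 mice, each a gene in 1 strain and region, did the highest or lowest value stand far from the rest. The groups of the 1.0ST arrays were not checked in this way.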

How the results depend on the processing

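Over 31 alternatives, 370 of 372 strain differences of H2-K1, H2-T23, B2m and Tapbp kept their direction and call (all values between -1.01 and -0.14). The exceptions are the whole brain values of Tapbp given above. Transcripts called in forebrain numbered 5022, but 3315 without surrogate variables, 1891 in clozapine mice alone, 3063 with each region alone and 2858 on the 1.0ST arrays without surrogate variables. In whole brain they numbered 5086, but 3034, 2251, 2805 and 2648 under the same settings and 3321 in vehicle mice alone. In hindbrain they numbered 5788, but 2837 in clozapine mice alone. On the 1.0ST arrays without surrogate variables 3 of the 9 genes were called between strains in whole brain, against 5. Hindbrain minus forebrain gave 5 genes called, but 1 on the 1.0ST arrays, where H2-K1 was at -0.037. H2-T23, at 0.059 with all mice, ran from -0.13 (called without NOD/ShiLtJ mouse DD656, FDR 0.0462) to 0.075 as each mouse was left out, and the cause of these changes was not tested. Whole brain minus forebrain gave 0 genes called, but 1 without surrogate variables and 3 with surrogate variables built from residuals, which also gave 1 for clozapine (Tapbp, -0.11, FDR 0.0387). For comparisons of regions and of treatments, the share of all transcripts called was not computed under these settings or with a mouse or the replicate block left out. Whether such counts of genes are many therefore cannot be told. Leaving out each mouse gave 4 to 5 genes called between strains in forebrain and whole brain, 4 to 4 in hindbrain, 3 to 7 for hindbrain minus forebrain, 0 to 1 for whole brain minus forebrain and 0 to 0 for the interactions, and 4544 to 5403 transcripts in forebrain, 4321 to 5649 in whole brain and 5007 to 7161 in hindbrain. Without the replicate block, 4 of the 9 genes were called for hindbrain minus forebrain (H2-K1 lost, 0.17, FDR 0.0503), and its removal changed no other call. Of 1887 values of single genes, 142 without a call changed sign. The alternatives built on residuals, on 1.0ST arrays without surrogate variables and without an array of mouse DD656 were chosen after seeing the data. Dim signal limits Psmb8, H2-Aa and Cd74: with clusters of mean log2 above 5 alone, 19458 were tested and Psmb8 dropped out.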

Other observations

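Between H2-K1 and H2-T23, the complement genes C4a and C2 and the TFIIH subunit gene Gtf2h4 were called in whole brain and hindbrain as well as in forebrain. C4a, which encodes a form of complement component C4, was higher in NOD/ShiLtJ by 0.46 in whole brain (FDR 5.52e-05) and 0.56 in hindbrain (FDR 9.89e-06). C2, the protease that forms a convertase with C4, was higher by 0.71 in whole brain (FDR 1.56e-09) and 0.86 in hindbrain (FDR 1.10e-10). Gtf2h4 differed by -0.47 in whole brain (FDR 5.86e-11) and -0.49 in hindbrain (FDR 1.77e-10).

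Each whole brain array was placed, by the transcripts with a called difference of hindbrain minus forebrain, on the line from the mean forebrain to the mean hindbrain of the other mice of its strain. Its hindbrain share was 70.6% for NOD/ShiLtJ mouse DD656 and 56.3% for C57BL/6J mouse BB707, against 19.5% to 36.9% for the other 14 mice. In the whole brain of DD656 the shared class I cluster stood at 9.04, the highest of the 8 NOD/ShiLtJ values, whose median was 8.63, and at 9.10 in the hindbrain of the same mouse.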
